A study of Mus musculus with 8 samples.

Results

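The contractile apparatus of smooth muscle was examined in femoral shaft bone of male mice through 10 genes: Cnn1, Acta2, Myh11, Tagln, Myl9, Lmod1, Smtn, Actg2, Cald1 and Mylk. They were chosen for their function, as genes of vascular smooth muscle, and all 10 were found among the 49315 gene IDs of the count table. The mice were 24 weeks old and of strain C57BL6, 4 of them Girk3-/- (KO) and 4 wild-type (WT). Girk3, encoded by Kcnj9, forms part of potassium channels that G proteins open. The labels name no Cre driver or tissue restriction for the deletion and do not say which part of the gene was removed. Ends of the bones were cut off and the marrow was flushed with saline before total RNA was extracted and sequenced. What was measured is the shaft with the vessels it holds and with other tissue left in the samples, such as skeletal muscle. Vessels of the bone and vessels of that tissue cannot be told apart.

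Smooth muscle cells wrap the arteries and veins that feed cortical bone, and pericytes, their relatives, lie along the smallest vessels. Contraction begins when calcium and calmodulin activate myosin light chain kinase, which phosphorylates the regulatory light chain of smooth muscle myosin and lets it pull on actin filaments. Calponin, caldesmon and transgelin bind those filaments and modulate the motor. Many genes of this apparatus are activated by serum response factor, which binds the CArG box, together with myocardin and its relatives. Acta2 is also used in bone research to mark osteoprogenitors and periosteal cells, so it does not mark vessels alone.

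The promoters of Acta2 and Myl9 are shown because, among the members with a sequence to search, they were the ones that held a CArG box or a close match to it. RefSeq windows on GRCm38.p6, from 250 bases before to 50 bases after a start site, were at hand for 7 of the 10 members, in 8 windows, and Tagln, Myh11 and Actg2 had none. A full box has 10 letters, an outer CC and GG around 6 letters that are all A or T, and the near match has 1 C or G among those 6 letters. Both forms were searched on both strands, and a stretch of letters counts as 1 form only. Capitals mark the boxes, and each window is written 5′ to 3′ on the strand of its gene, Acta2 at chr19:34255324-34255623 on the minus strand and Myl9 at chr2:156775214-156775513 on the plus strand.
Acta2: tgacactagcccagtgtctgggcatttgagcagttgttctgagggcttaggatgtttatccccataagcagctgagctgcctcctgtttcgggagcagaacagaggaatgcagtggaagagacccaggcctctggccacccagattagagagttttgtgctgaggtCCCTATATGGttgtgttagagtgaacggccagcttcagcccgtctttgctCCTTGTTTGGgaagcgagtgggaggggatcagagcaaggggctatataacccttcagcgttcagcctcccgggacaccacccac
Myl9: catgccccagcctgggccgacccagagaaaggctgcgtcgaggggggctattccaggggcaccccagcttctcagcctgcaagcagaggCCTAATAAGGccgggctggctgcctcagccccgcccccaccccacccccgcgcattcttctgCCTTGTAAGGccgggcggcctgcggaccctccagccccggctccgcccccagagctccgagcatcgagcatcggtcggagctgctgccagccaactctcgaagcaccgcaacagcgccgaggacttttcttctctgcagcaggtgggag
Acta2 held 2 near matches, CCCTATATGG starting 84 bases and CCTTGTTTGG starting 34 bases before the RefSeq start site. Myl9 held the full box CCTAATAAGG, starting 161 bases before the start site, and the near match CCTTGTAAGG, starting 99 bases before it. All these distances are counted from annotated start sites, and where transcription began was not measured. The full box occurred in 1.63% and the near match in 8.5% of all 32851 windows. The windows of Cnn1, Lmod1, Smtn, Cald1 and Mylk held neither form, which says only that these letters are not in these windows.

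Each library held between 30937465 and 32348592 counts in KO and between 30087749 and 36553713 in WT. The unit of level is CPM, the count of a gene scaled to a common library size after adjustment by the trimmed mean of M values (TMM). Kcnj9 (ENSMUSG00000038026) had 0, 8, 4 and 7 counts in KO replicates 1 to 4, against 7, 6, 6 and 23 counts in WT replicates 1 to 4. At these few counts, and with the deleted part unnamed, they check nothing about the genotypes. Bone genes such as Col1a1, the main chain of bone collagen, were abundant in both groups, at 6900 ± 1940 CPM in KO and 8130 ± 3190 CPM in WT (SD, n = 4 each). Skeletal muscle genes were abundant too, and replicates 4 of the 2 groups stood apart in them: 16 such genes summed to 179000 CPM in KO replicate 4, the highest library, and to 67200 CPM in WT replicate 4, the lowest.

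None of the 10 smooth muscle genes passed the test between KO and WT bone. By the quasi-likelihood test of edgeR, with p-values adjusted by the Benjamini-Hochberg method over the 17450 genes that passed a low-count filter and a threshold of 0.05, 0 of the 10 members were called, where 0.0115% of all tested genes were (2 genes). All 10 passed the filter. At an unadjusted p under 0.05 there were 5 members, Cnn1, Actg2, Tagln, Myl9 and Acta2, each with the higher mean in KO, where 18.2% of all tested genes reached that p, 9.59% with a higher level in KO and 8.59% with a lower one. The count of members at that p was 1 without WT replicate 1 or WT replicate 2, and 2 without KO replicate 1 or KO replicate 2. It was 3 without KO replicate 4 or WT replicate 3, 5 without KO replicate 3, and 6 without WT replicate 4. Without KO replicate 1 and without WT replicate 4 the count included Mylk, which was lower in KO (-0.40 and -0.41). The share of all tested genes at that p was not computed for these fits without 1 library. DESeq2 called 1 member (Cnn1), against 6.45% of its genes, and limma-voom with sample quality weights called 1 (Myl9), against 4.04%. The KO and WT libraries overlapped in all 10 members, while 13.1% of all tested genes had no overlap. The members' median log2 fold change, KO over WT, was 0.28, with 9 positive and 1 negative, beside a median of -0.012 and 48.6% positive values over all tested genes. Only 6 of the 10 were positive with limma-voom, with library totals in place of TMM, with a skeletal muscle score as a covariate or without both replicates 4. The median was 0.12 with limma-voom, 0.17 with library totals, and 0.13 under a stricter filter that removed Actg2.

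**Figure D1:**
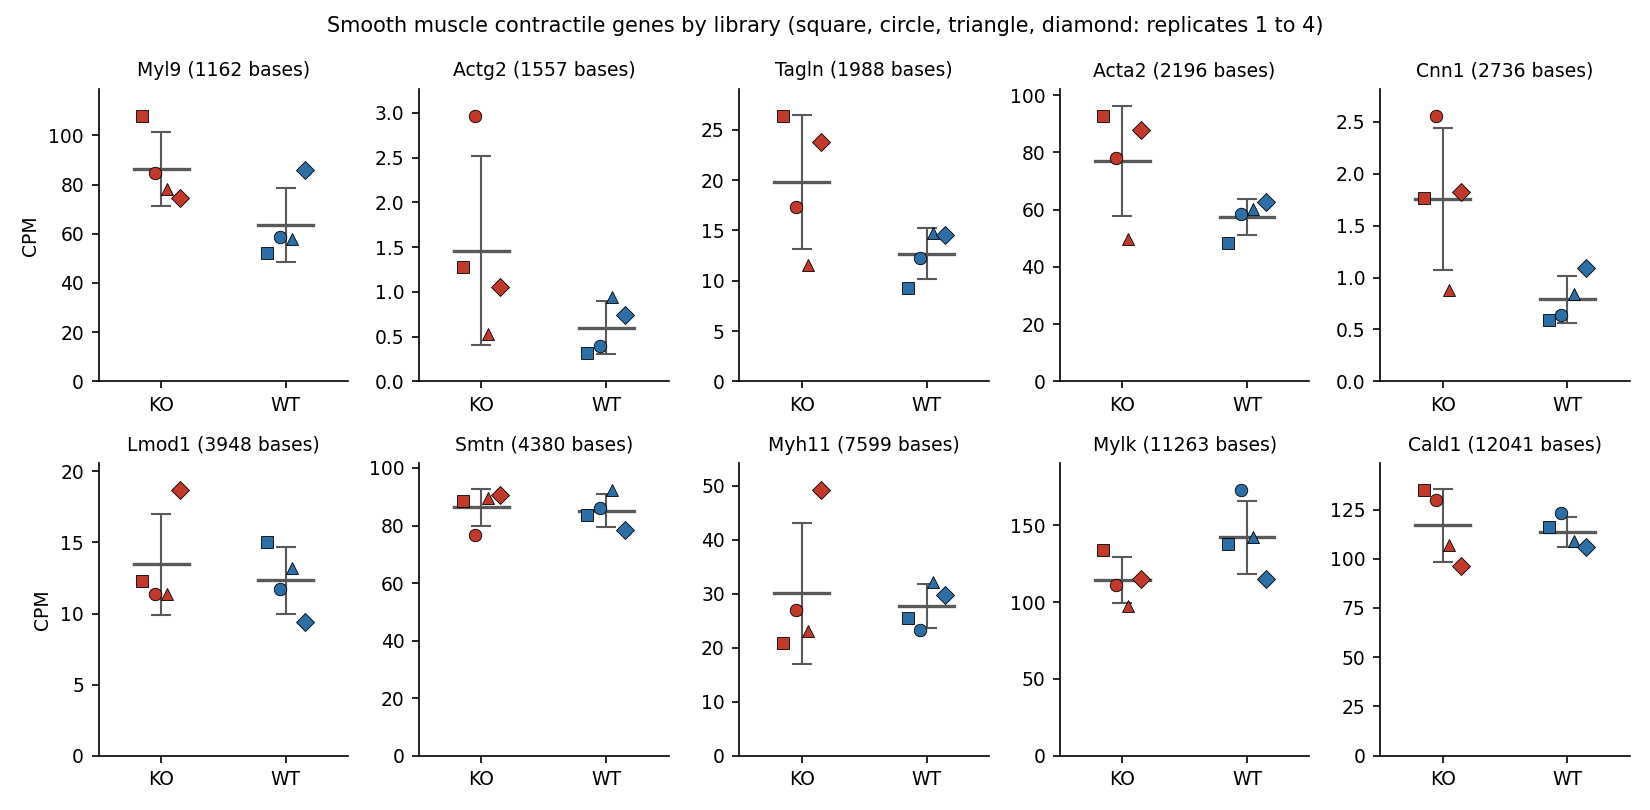
CPM of the 10 smooth muscle genes in each library, KO left and WT right, ordered by exonic length given in the panel titles. Symbols are single mice, the horizontal line is the mean and the bar the SD (n = 4 each). In the upper row, apart from Myl9, KO replicate 3 lies among the WT libraries and the other 3 KO libraries above them.

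Levels differed widely between members. They were divided by the length of all annotated exons of a gene, which can exceed that of the transcript in use, so the order is approximate. Per kilobase of exon Myl9 was highest, at 74.2 CPM per kb in KO and 54.7 in WT. Acta2 followed at 35.1 in KO and 26.2 in WT, and then Smtn at 19.7 in KO and 19.4 in WT, these 3 without overlap between each other in the libraries of either group. In the middle stood Mylk at 10.1 CPM per kb in KO and 12.6 in WT, Tagln at 9.94 in KO and 6.39 in WT, and Cald1 at 9.71 in KO and 9.43 in WT. Across KO libraries the per-kb ranges of all 3 overlapped one another, so their order there is within the spread. The level of Tagln is also uncertain because an antisense gene, named below, overlaps its exons. For Smtn, Gm11946 on the opposite strand overlaps 16.3% of the exonic bases. Gm11946 had 3 to 11 counts in KO libraries and 9 to 16 in WT libraries. Myh11 was at 3.96 CPM per kb in KO and 3.64 in WT, and Lmod1 at 3.40 in KO and 3.11 in WT, with overlapping ranges. Actg2 and Cnn1 were the lowest by far, at 0.939 and 0.642 CPM per kb in KO and at 0.387 and 0.289 in WT, again with overlapping ranges. Transcripts of all 10 genes were thus present in every library, with the calponin typical of differentiated smooth muscle at the bottom of this scale. These levels do not show which cells the transcripts came from.

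The actins of smooth muscle were measured by Acta2 and Actg2. Acta2 (ENSMUSG00000035783, chromosome 19, 34241090 to 34255590, GRCm38), the actin of vascular smooth muscle, was at 92.9, 78.0, 49.7 and 87.7 CPM in KO replicates 1 to 4, against 48.4, 58.4, 60.3 and 62.7 CPM in WT replicates 1 to 4. KO replicates 1, 2 and 4 lay above every WT library, and KO replicate 3 lay between the lowest 2 of them. The means were 77.1 ± 19.3 CPM in KO and 57.5 ± 6.28 CPM in WT (SD, n = 4 each), a log2 fold change of 0.42 ± 0.19 (SE, adjusted p = 0.264 in edgeR).
Actg2 (ENSMUSG00000059430, chromosome 6, 83512905 to 83536265), the gamma actin of visceral smooth muscle, had 40, 101, 17 and 28 counts in KO replicates 1 to 4, against 11, 13, 28 and 32 counts in WT replicates 1 to 4. On the CPM scale these were 1.28, 2.97, 0.534 and 1.06 in KO and 0.323, 0.397, 0.945 and 0.743 in WT. KO replicate 2 was the highest library and KO replicate 3 lay among the WT libraries, and the log2 fold change of 1.28 ± 0.53 (SE, adjusted p = 0.239 in edgeR) was 0.67 without KO replicate 2. Of the 50-base stretches of Acta2 transcripts, 0.326% also occurred in another gene's transcripts, and of Actg2 transcripts 0%. Only exact matches were counted, and the treatment of multi-mapping reads is not given. Whether reads of the abundant skeletal and cytoplasmic actins were counted for these genes was not tested.

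Of the myosin motor, Myh11 and Myl9 gave different pictures. Myh11 (ENSMUSG00000018830, chromosome 16, 14194535 to 14291372), the heavy chain particular to smooth muscle, was at 20.9, 27.0, 23.1 and 49.2 CPM in KO replicates 1 to 4, against 25.5, 23.3, 32.2 and 29.7 CPM in WT replicates 1 to 4. KO replicate 4 was the highest of all libraries, and KO replicates 1 and 3 were the lowest. Its log2 fold change of 0.12 ± 0.25 (SE, adjusted p = 0.849 in edgeR) was -0.22 without KO replicate 4.
Myl9 (ENSMUSG00000067818, chromosome 2, 156775420 to 156781658), the regulatory light chain whose promoter is printed above, was at 108, 84.5, 78.1 and 74.6 CPM in KO replicates 1 to 4, against 52.0, 58.5, 58.0 and 85.8 CPM in WT replicates 1 to 4. Every KO library lay above WT replicates 1 to 3, and WT replicate 4 lay above 3 of the KO libraries. The means were 86.2 ± 14.9 CPM in KO and 63.6 ± 15.1 CPM in WT (SD, n = 4 each), or 0.44 as a log2 fold change (SE 0.18, edgeR adjusted p = 0.234). Without both replicates 4 Myl9 passed in edgeR, with a log2 fold change of 0.68 (adjusted p = 0.0401), in a fit that called 2.62% of all tested genes. It also passed in edgeR with a skeletal muscle score (0.72, adjusted p = 0.0139) or a marrow score (0.44, adjusted p = 0.0438) as a covariate, in fits that called 7.84% of all tested genes with the muscle score and 7.07% with the marrow score.

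Mylk, the kinase that phosphorylates the light chain, was the 1 member with a negative log2 fold change. It (ENSMUSG00000022836, chromosome 16, 34745210 to 35002420) was at 134, 111, 97.3 and 115 CPM in KO replicates 1 to 4, against 138, 173, 142 and 115 CPM in WT replicates 1 to 4. KO replicates 2 to 4 lay below every WT library by a margin that was smallest for KO replicate 4 beside WT replicate 4. The log2 fold change was -0.31 (SE 0.15, edgeR adjusted p = 0.317). In counts, the ratio of the substrate Myl9 to the kinase Mylk was 0.807, 0.758, 0.803 and 0.649 in KO replicates 1 to 4, against 0.377, 0.338, 0.409 and 0.746 in WT replicates 1 to 4. WT replicate 4 thus lay with the KO libraries, and the ratio, chosen after its values were seen, is given without a test. Myl9 has 1162 exonic bases and Mylk 11263, and the ratio was not corrected for the trend with gene length given below. With the trends of length and GC content removed, the log2 fold changes were 0.28 for Myl9 and -0.07 for Mylk.

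Among the actin-binding proteins, calponin and transgelin differed most in mean. Cnn1 (ENSMUSG00000001349, chromosome 9, 22099216 to 22109630), the calponin of differentiated smooth muscle, had 55, 87, 28 and 48 counts in KO replicates 1 to 4, against 20, 21, 25 and 47 counts in WT replicates 1 to 4. In CPM it was at 1.77, 2.56, 0.879 and 1.82 in KO and at 0.587, 0.641, 0.844 and 1.09 in WT. KO replicates 1, 2 and 4 lay above every WT library and KO replicate 3 below WT replicate 4. Cnn1 had the smallest p of the members, with a log2 fold change of 1.14 ± 0.35 (SE, adjusted p = 0.143 in edgeR), and DESeq2 called it (adjusted p = 0.0411). Tagln (ENSMUSG00000032085, chromosome 9, 45929619 to 45936058), encoding transgelin, was at 26.4, 17.3, 11.6 and 23.8 CPM in KO replicates 1 to 4, against 9.30, 12.3, 14.7 and 14.5 CPM in WT replicates 1 to 4. The pattern was that of Acta2, 3 KO libraries above every WT library and KO replicate 3 among them, with a log2 fold change of 0.64 ± 0.25 (SE, adjusted p = 0.218 in edgeR). The annotation places an antisense gene, Gm48529, over 62.4% of the exonic bases of Tagln. The strand setting of the counting is not given, so reads of the 2 cannot be told apart. Gm48529 had 77 to 158 counts in KO libraries and 72 to 136 in WT libraries. Tagln had 369 to 822 in KO and 317 to 626 in WT. It is unknown whether a read lying in both genes was counted for Tagln, for Gm48529 or for neither. These counts therefore cannot show how much the overlap changed the level of Tagln, which may be too low or too high.

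The other 3 actin-filament genes differed little between the groups. Cald1 (chromosome 6, 34598500 to 34775473), whose caldesmon has a smooth muscle form and a form of non-muscle cells that gene counts do not separate, was at 135, 130, 107 and 96.1 CPM in KO replicates 1 to 4, against 116, 123, 109 and 106 CPM in WT replicates 1 to 4. KO libraries lay on both sides of the WT range, and the log2 fold change was 0.04 (SE 0.14, edgeR adjusted p = 0.905). Smtn (chromosome 11, 3517523 to 3540612), encoding smoothelin, was at 88.4, 76.6, 89.6 and 90.6 CPM in KO replicates 1 to 4, against 83.5, 86.1, 92.4 and 78.5 CPM in WT replicates 1 to 4. It was the most even member, with a log2 fold change of 0.02 ± 0.11 (SE, adjusted p = 0.950 in edgeR). Lmod1 (chromosome 1, 135324807 to 135368065), the leiomodin that nucleates actin filaments in smooth muscle, was at 12.3, 11.4, 11.4 and 18.7 CPM in KO replicates 1 to 4, against 15, 11.7, 13.2 and 9.39 CPM in WT replicates 1 to 4. The highest and the lowest values were those of both replicates 4, and the log2 fold change of 0.13 ± 0.20 (SE, adjusted p = 0.789 in edgeR) was -0.18 without the pair. Lmod1 is the 1 member on the chromosome of the deleted gene, 37 Mb from Kcnj9.

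**Figure D2:**
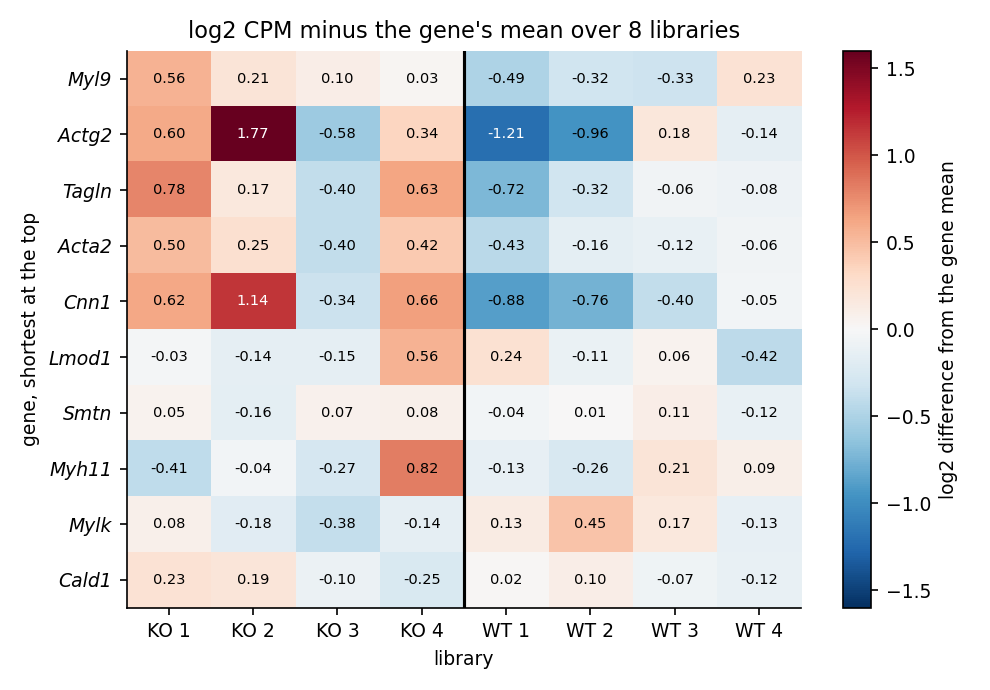
log2 CPM of each smooth muscle gene (rows, shortest gene at the top) in each library (columns, KO left of WT) minus the mean of that gene over the 8 libraries. In Actg2, Tagln, Acta2 and Cnn1 the KO replicates 1, 2 and 4 are positive and KO replicate 3 is negative, whereas Myh11 and Lmod1 are positive in KO only in replicate 4.

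The members did not move as a block. Averaged over the 10, the log2 level was 0.30, 0.32, -0.25 and 0.32 from its mean in KO replicates 1 to 4, against -0.35, -0.23, -0.02 and -0.08 in WT replicates 1 to 4. KO replicate 3 thus stood with the WT libraries. Each member weighs equally in this average, including Actg2 and Cnn1 with their few counts. In KO replicate 2 Actg2 stood at 1.77 and Cnn1 at 1.14, and every other member there between -0.18 and 0.25. Acta2 followed the mean of the 10 most closely, with a root mean square difference of 0.113 log2 units over the 8 libraries, and Actg2 least, with 0.673. Among 14642 other genes with at least 1 CPM on average, the 5 nearest to the mean pattern were Inafm1 (0.084), Pdlim1 (0.097), Eid1 (0.097), Bcam (0.115) and Gt(ROSA)26Sor (0.115), all by the same measure. Pdlim1 encodes a PDZ and LIM domain protein that binds alpha-actinin on stress fibres, and Bcam a laminin-binding adhesion molecule. Pdlim1 was at 68.3, 58.9, 40.1 and 65.0 CPM in KO replicates 1 to 4, against 42.5, 40.1, 45.1 and 46.5 CPM in WT replicates 1 to 4, and having been picked for its likeness it is given without a test.

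The fold changes of the members went with their length. The 5 shortest members had 1162 to 2736 exonic bases and log2 fold changes of 0.42 to 1.28, and the other 5 had 3948 to 12041 bases and values of -0.31 to 0.13. Over all tested genes the same direction held: the median log2 fold change was 0.214 in the decile of shortest genes, 0.131 in the third decile, which holds Tagln and Acta2, and -0.189 in the decile of longest genes, which holds Mylk and Cald1. In the first 4 length deciles, which hold these 5 members, between 11% and 22.2% of genes had an unadjusted p under 0.05 with a higher level in KO, and in the longest decile 1.49% did. With the trend of each library with length and GC content removed, the log2 fold changes were 1.17 for Actg2, 1.09 for Cnn1, 0.52 for Tagln, 0.32 for Acta2 and 0.28 for Myl9 (edgeR adjusted p between 0.211 and 0.442), and that of Mylk was -0.07 (edgeR adjusted p = 0.892). Myh11, Cald1, Lmod1 and Smtn were at 0.26, 0.19, 0.15 and 0.12, each higher than in the main comparison. The members' median in that fit was 0.27, with 9 of the 10 positive. In that fit 0 members were called, and 2, Cnn1 and Tagln, had an unadjusted p under 0.05, where 14.8% of all tested genes did. Of the members, Cnn1 and Actg2 lay the furthest from the median of their length decile, and both rest on few counts.

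**Figure D3:**
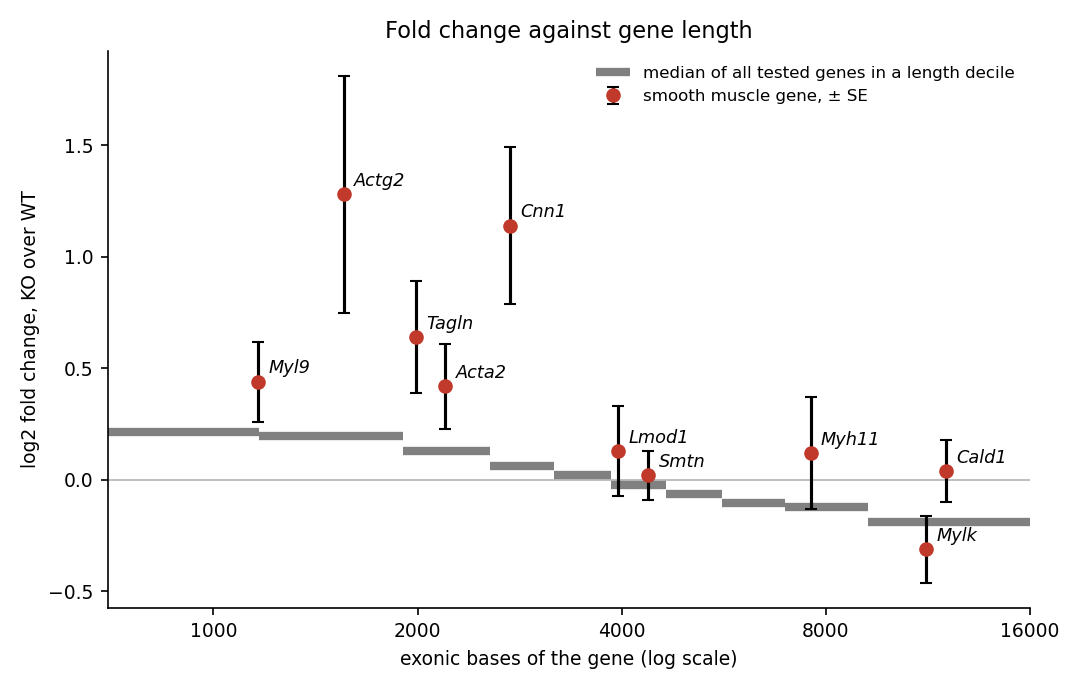
log2 fold change, KO over WT, of each smooth muscle gene (red, bars ± SE from edgeR) against its exonic length on a log axis, with grey bars for the median of all tested genes in each length decile, cut off at the axis ends. Myl9, Actg2, Tagln, Acta2 and Cnn1 lie above the grey bars at the short end, where the bars themselves are positive, and Mylk lies below the bar of the longest genes.

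The paralogs of the members, the non-muscle, skeletal and cardiac forms of the same proteins, included much more abundant genes and showed no call. Of 19 tested, 16 had positive log2 fold changes, the median was 0.06, and 1 had an unadjusted p under 0.05. That gene was Myl12a, a light chain of non-muscle myosin, at 286 ± 39.1 CPM in KO and 208 ± 24.8 CPM in WT (SD, n = 4 each, log2 fold change 0.46 ± 0.15 SE, adjusted p = 0.160 in edgeR). Myh10, a non-muscle heavy chain, followed with -0.41 (SE 0.21, edgeR adjusted p = 0.334). Skeletal Acta1 was at 17500 ± 4710 CPM in KO and 14500 ± 3530 CPM in WT, and cytoplasmic Actb at 1480 ± 450 CPM in KO and 1430 ± 346 CPM in WT (SD, n = 4 each). Acta2 was thus a small part of the actin transcripts in either group. The calponin paralogs were far above Cnn1 in level. Cnn2 was at 68.6 CPM per kb in KO and 65.8 in WT, and Cnn3 at 26.4 in KO and 25.3 in WT. Tagln2 was above Tagln at 43.3 CPM per kb in KO and 42.4 in WT. That comparison is limited by the overlap of Tagln with Gm48529, which makes the level of Tagln uncertain.

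The regulators of smooth muscle genes showed no call either. Of 11 such genes 10 were tested, 5 with positive and 5 with negative log2 fold changes and a median of 0.03. Srf, the factor that binds CArG boxes, was at 100 ± 12.9 CPM in KO and 95.0 ± 12.6 CPM in WT (SD, n = 4 each, edgeR adjusted p = 0.819). Myocd, its smooth muscle and cardiac coactivator, was below the filter at 0.245 ± 0.0940 CPM in KO and 0.318 ± 0.111 CPM in WT (SD, n = 4 each). The smallest p values were those of Elk1, a factor that competes with myocardin for Srf, at -0.30 (SE 0.13, edgeR adjusted p = 0.263), and Gata6, at 0.79 (SE 0.42, edgeR adjusted p = 0.354). Of 19 genes that control contraction, 11 were positive, 8 negative, the median was 0.07, and 2 had an unadjusted p under 0.05. These were Ppp1r14a, the phosphorylation-dependent inhibitor of myosin phosphatase, at 7.64 ± 1.70 CPM in KO and 4.88 ± 1.47 CPM in WT (SD, n = 4 each, log2 fold change 0.64 ± 0.23 SE, adjusted p = 0.191 in edgeR), and the kinase gene Dapk3 (0.35, SE 0.13, edgeR adjusted p = 0.210). Of 15 other structural genes of smooth muscle, 9 were positive and 6 negative with a median of 0.05. Among them Crip1, a small LIM protein, had a log2 fold change of 0.73 ± 0.23 (SE, adjusted p = 0.149 in edgeR) and Vcl, encoding vinculin, one of -0.54 (SE 0.24, edgeR adjusted p = 0.271). Not all of this list is particular to smooth muscle. Tpm1, at 16600 CPM in KO and 11400 CPM in WT, was far above every member. Like the skeletal muscle genes, it was highest in KO replicate 4 (20900 CPM) and lowest in WT replicate 4 (7910 CPM). Which cells its transcripts came from was not tested.

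Markers of the neighbouring vessel cells were measured beside the members, and in whole bone fewer cells of a type and less RNA per cell cannot be told apart. The values given for these and the other lists are not corrected for the trend with gene length given above. Of the vessel genes named below, Ndufa4l2 has 1095 exonic bases, Cldn5 1416, Vtn 2030 and Esam 2867. Rgs5 has 4546, Notch3 8089 and Ptprb 13333. Of 14 pericyte and mural genes, 8 were positive and 6 negative, the median was 0.08, and 0 were called. An unadjusted edgeR p under 0.05 was reached by 4 with the higher level in KO and 1 with the lower. The summed level of the 14 was 619 to 815 CPM in KO and 586 to 843 CPM in WT, and none of them was at 0 in any library. Rgs5, the most abundant mural marker, was at 311 ± 30.5 CPM in KO and 314 ± 52.9 CPM in WT (SD, n = 4 each). Ndufa4l2, a mitochondrial protein used as a pericyte marker, was at 12.4 ± 2.49 CPM in KO and 8.09 ± 0.526 CPM in WT (log2 fold change 0.62 ± 0.16 SE, adjusted p = 0.0999 in edgeR), and Vtn, encoding vitronectin, had 0.48 (SE 0.16, edgeR adjusted p = 0.170). Notch3, a receptor of arterial smooth muscle and pericytes, had -0.44 (SE 0.18, edgeR adjusted p = 0.225).
Of 18 endothelial genes, 9 were positive and 9 negative, the median was -0.03, and the summed level was 1020 to 1270 CPM in KO and 1130 to 1190 CPM in WT. Cldn5, a tight junction protein of endothelium, was at 50.2 ± 6.23 CPM in KO and 33.1 ± 5.76 CPM in WT (SD, n = 4 each, log2 fold change 0.60 ± 0.14 SE, adjusted p = 0.0914 in edgeR), and Esam had 0.27 (SE 0.10, edgeR adjusted p = 0.189). At an unadjusted p under 0.05 there were 3 endothelial genes with the higher level in KO and 1 with the lower, Ptprb, a receptor phosphatase, at 97.9 ± 19.0 CPM in KO and 137 ± 24.7 CPM in WT (SD, n = 4 each, log2 fold change -0.49, SE 0.18, edgeR adjusted p = 0.195).

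Other tissue in the samples varied more between libraries than the vessel genes did. Skeletal muscle genes had a median log2 fold change of 0.39, with 12 of 16 positive, Tnni2 at 0.80 and Pvalb at 0.77 (edgeR adjusted p = 0.128 and 0.155), and a summed level of 107000 to 179000 CPM in KO and 67200 to 126000 CPM in WT. Marrow blood cell genes had a median of 0.09, with 7 of 12 positive, and a summed level of 4760 to 12200 CPM in KO and 4720 to 13000 CPM in WT. Their smallest p values were those of Cd79a at -0.59 and Camp at 0.84 (edgeR adjusted p = 0.274 and 0.505). Genes of periosteum, tendon and fibroblasts had a median of -0.11, with 5 of 11 positive, and a summed level of 2100 to 3050 CPM in KO and 2450 to 3140 CPM in WT. Of these, Postn had -0.40 and Mfap5 0.43 (edgeR adjusted p = 0.340 and 0.343). Osteoblast and osteocyte genes had a median of -0.27, with 1 of 10 positive, and a summed level of 5760 to 10500 CPM in KO and 5160 to 13000 CPM in WT, Runx2 having -0.43 and Sp7 -0.37 (edgeR adjusted p = 0.130 and 0.242). None of these 4 lists held a called gene or a gene at 0 in any library, and their part in the levels of the smooth muscle genes was not tested beyond the 2 covariates named for Myl9.

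**Figure D4:**
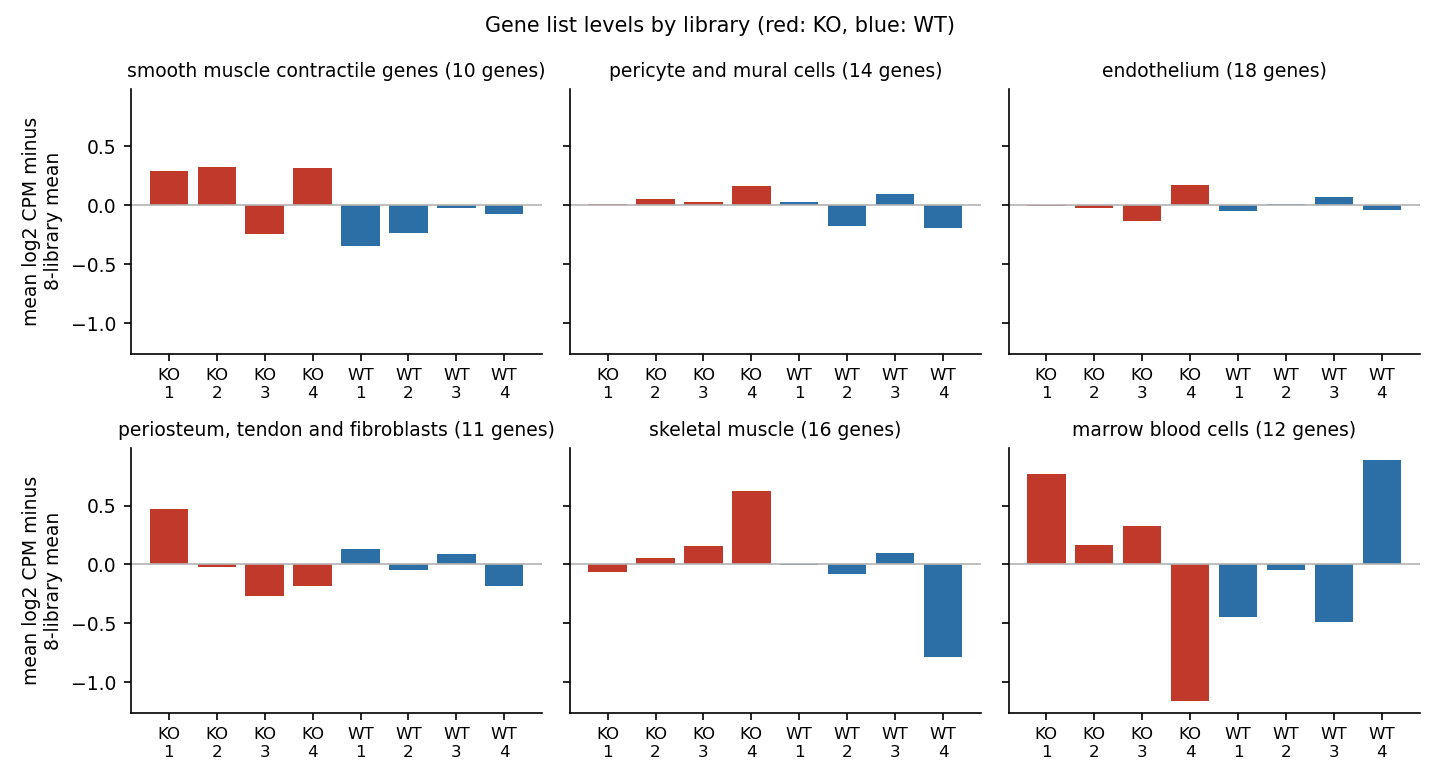
Mean log2 CPM of the tested genes of 6 lists in each library, minus the mean over the 8 libraries, KO (red) left of WT (blue). The mean of the smooth muscle genes is positive in KO replicates 1, 2 and 4, in replicate 2 mostly through Actg2 and Cnn1. The pericyte and endothelial lists differ less between libraries, and the skeletal muscle and marrow lists swing most in both replicates 4.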

How the data were processed

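The authors deposited 1 table of raw whole-number read counts per Ensembl gene for 8 libraries. The submitters' processing notes name bcl2fastq 2.17, STAR 2.5.2b, featureCounts of Subread 1.5.2 and build mm10. For the annotation, the strand setting and the treatment of multi-mapping reads the entry is: not given in the sources used here. Of the gene IDs, 49056 matched GENCODE M21 on GRCm38, another name for mm10. It supplied symbols, positions and exonic lengths, and the 259 unmatched IDs took at most 0.0225% of a library. Groups and replicate numbers come from the sample titles, and each library was taken as 1 mouse since the design states 4 per group.

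The main comparison, KO against WT, used edgeR 4.0.16 under R 4.3.3 (quasi-likelihood test, robust dispersion, TMM factors, filterByExpr, group as the only term). DESeq2 1.42.0 and limma 3.58.1 were alternatives, with other scalings and filters, covariates, a replicate block, removal of length and GC trends by loess (span 0.3), and libraries left out. Log2 CPM used a prior count of 2. Every pair of libraries differed, by at least 39.4 per degree of freedom in a chi-square over genes with at least 100 counts. The members and lists were chosen with earlier results of these data known. Named beside the members were, in each list, called genes and the 2 genes with the smallest p, paralogs for their level, and the 5 genes nearest to the members' mean pattern. Col1a1, Srf, Myocd, Tpm1, Rgs5, Notch3 and Ptprb were added after their values were seen.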

Additional observations from a re-analysis of the deposited data

Results flagged for a closer look

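Within a group of 4 libraries, 1 value lay far from the other 3, by a criterion that chance meets in about 1 in 20 groups, in 4 of the 42 groups examined (10 members and 11 lists in 2 groups each). Lmod1 was at 18.7 CPM in KO replicate 4, where the other KO libraries were at 11.4 to 12.3 CPM. Smtn was at 76.6 CPM in KO replicate 2, where the others were at 88.4 to 90.6 CPM. WT replicate 4 was low in the summed level of the members' paralogs, at 14200 CPM beside 21000 to 21900 CPM in the other WT libraries, and in that of the genes controlling contraction, at 2060 CPM beside 2490 to 2550 CPM. Most of the paralogs' sum was skeletal Acta1, at 9260 CPM in WT replicate 4 beside 15900 to 16800 CPM in the other WT libraries. That library was also the lowest in the skeletal muscle genes, at 67200 CPM, so the paralog flag is not separate from muscle content. For the genes controlling contraction the link was not tested.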

How the results depend on the processing

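The median log2 fold change of the members stayed positive in all 20 alternatives (0.12 to 0.36, and 0.25 to 0.36 with 1 library left out). The number of members called was 0 in 15 of them, including each of the 8 that leave out 1 library (0 to 0), and 1 with DESeq2, with limma-voom, with the skeletal muscle or the marrow score as a covariate, and without both replicates 4. Over all genes, the count of 2 calls was 994 with DESeq2, 705 with limma-voom, 71 without the low-count filter, 1 with the replicate block, 1368 with the muscle score, 1233 with the marrow score, 458 without both replicates 4, and 2 to 4 with 1 library left out. An unadjusted edgeR p under 0.05 was reached by 1 member, Cnn1, in the replicate block, where the share of all tested genes at that p was not computed. Same-numbered KO and WT libraries did not deviate together (correlations of -0.568 to -0.166 over 17450 genes). That check cannot exclude that the numbers pair the mice, because tissue content, such as muscle in both replicates 4, enters it too. Cnn1 ranged from 0.89 to 1.36, Tagln from 0.41 to 0.82, Acta2 from 0.25 to 0.58, Myl9 from 0.28 to 0.72, Actg2 from 0.67 to 1.57 and Mylk from -0.48 to -0.07, and none of these 6 changed direction. Under the stricter filter, 1 CPM or more in 4 or more libraries, Actg2 was not tested. The direction changed for 4 members that differed little, and the cause was not tested. With library totals in place of TMM, which moved the median of all genes to -0.112, Myh11 was at -0.02, Smtn at -0.08 and Cald1 at -0.04. With limma-voom Lmod1 was at -0.05, Smtn at -0.02 and Cald1 at -0.01. With the muscle score Myh11 was at -0.16, Lmod1 at -0.18 and Smtn at -0.05. Without both replicates 4 Myh11 was at -0.19, Lmod1 at -0.18 and Smtn at -0.04. With 1 library left out, Myh11 ranged from -0.22 to 0.26, Lmod1 from -0.07 to 0.24, Smtn from -0.02 to 0.07 and Cald1 from -0.03 to 0.13. Depth limited Actg2 and Cnn1 most, where single libraries held as few as 11 and 20 counts.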
